A study of Mus musculus with 20 samples.

Results

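The BCL2 family holds the proteins that decide whether the outer membrane of the mitochondria opens and starts apoptosis. Its transcripts were read in 20 RNA-seq libraries of sorted mouse bone marrow stem and progenitor cells, for 10 genes of the 55,573 in the count files. They were 4 pro-survival genes (Bcl2, Bcl2l1, Mcl1 and Bcl2l2), 2 pore-forming genes (Bax and Bak1) and 4 BH3-only genes (Bcl2l11, Bbc3, Pmaip1 and Bid). The 10 genes were listed by name and matched through the Ensembl identifiers of GENCODE M21, with earlier results of these data known.

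The cells came from C57BL/6 mice 7 to 9 weeks old, with no other genotype or treatment named, and each library was made from 1,000 to 8,000 cells of 2 pooled mice. All were lineage-low cells with Sca-1 and c-Kit on their surface. Haematopoietic stem cells (HSC) were gated as CD150+CD48- and multipotent progenitors (MPP) as CD150-CD48-, and each gate was divided by an antibody to the leptin receptor (Lepr). This gave 4 groups of 5 libraries, HSC and MPP each with and without surface Lepr (Lepr+ and Lepr-), which allow a comparison of stem with progenitor cells at each Lepr status, of Lepr+ with Lepr- cells in each cell type, and of the Lepr difference between the cell types.

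BCL2, BCL-XL (from Bcl2l1), MCL1 and BCL-W (from Bcl2l2) keep cells alive by holding the killer members of their own family. BAX and BAK, once free, form pores through which cytochrome c leaves the mitochondria and switches on caspases. The BH3-only proteins carry the stress signals: BIM (from Bcl2l11) answers loss of growth factors, PUMA (from Bbc3) and NOXA (from Pmaip1) answer DNA damage through p53, and BID links death receptors to mitochondria. In the blood system Mcl1 is needed for stem cells to survive, while BCL-XL keeps platelets and maturing erythroid cells alive.

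Library totals ran from 9,532,993 to 31,589,794 counts in genes, and levels are given in CPM, counts divided by a common library size that edgeR's TMM factors had scaled. At an equal depth of 9,532,993 counts the libraries showed between 14,761.5 and 20,789.6 genes. Slamf1, which encodes the sort antigen CD150, had means of 46.6 ± 13.4 (Lepr-) and 41.3 ± 17.7 CPM (Lepr+) in HSC against 5.12 ± 3.83 (Lepr-) and 5.03 ± 3.01 CPM (Lepr+) in MPP (SD, n = 5). It passed between HSC and MPP in Lepr- cells (edgeR adjusted p = 0.0377) but not in Lepr+ cells (0.124, and 0.0352 with the replicate number as a block). The libraries least like their own groups were Lepr+ MPP replicates 4 and 5 and Lepr+ HSC replicate 5. The Bcl2l1 result and some of the counts of marker genes are also given without them. Counts behind 1 library's value ran from 1,284 to 6,489 for Mcl1, from 414 to 3,190 for Bcl2l1 and from 226 to 4,075 for Bcl2, but from 11 to 86 for Bak1 and from 0 to 31 for Pmaip1. The values of Bak1, Bcl2l2 and Pmaip1 are therefore the least precise of the 10.

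With group as the only term in the fit, 1 pro-survival transcript passed between stem cells and progenitors. Bcl2l1 was higher in HSC than in MPP at both Lepr states, by about the same factor. It was the 1 member of 10 that passed an adjusted p of 0.05 in either comparison in that fit. Over all 16,509 genes tested, 2.73% passed between Lepr- HSC and Lepr- MPP in either direction and 1.22% as higher. Between Lepr+ HSC and Lepr+ MPP 0.466% passed in either direction and 0.26% as higher. The other 9 members did not pass in either comparison in this fit. Of the 10, 3 and 2 had an unadjusted p under 0.05 in edgeR, against 2,026 and 1,302 of the 16,509 genes. With the replicate number as a block Bcl2 passed as well in Lepr- cells, as given below.

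Bcl2l1 (ENSMUSG00000007659, chr2:152780668-152831728, minus strand, GRCm38, protein-coding) encodes BCL-XL and, by another splice form, the short killer BCL-XS, and gene counts do not separate them. In Lepr- cells it was at 103, 142, 113, 171 and 149.8 CPM in HSC replicates 1 to 5, against 43.3, 50.4, 60.9, 101 and 60.6 CPM in MPP replicates 1 to 5. The lowest HSC library lay just above the highest MPP library, which was replicate 4, so the groups did not overlap. In Lepr+ cells it was at 89.4, 164, 85.1, 183 and 177 CPM in HSC replicates 1 to 5, against 51.8, 45.1, 58.9, 66.5 and 46.6 CPM in MPP replicates 1 to 5. Here too the groups did not overlap, with HSC replicates 1 and 3 far below the other HSC libraries. The background of genes whose groups did not overlap was 6.23% in Lepr- cells (2.79% as higher) and 2.13% in Lepr+ cells (1.11% as higher).

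The fitted log2 difference was 1.11 ± 0.26 (SE) in Lepr- cells, a 2.15-fold level with a 95% interval from 1.49 to 3.12 (adjusted p = 0.0186, edgeR quasi-likelihood test with Benjamini-Hochberg adjustment). In Lepr+ cells it was 1.38 ± 0.26, a 2.60-fold level with an interval from 1.79 to 3.77 (edgeR adjusted p = 0.0173). HSC exceeded MPP in 5 of 5 replicate pairs at both Lepr states. In bulk libraries a different share of cells with the transcript and a different amount per cell cannot be told apart. In the libraries with a June date in their file name (replicates 1, 3 and 5) the log2 differences were 1.15 and 1.17, and in those dated July (replicates 2 and 4) 1.00 and 1.63, in Lepr- and Lepr+ cells, with the calls lost at these smaller n (edgeR adjusted p of 0.183 in June and 0.956 in July for Lepr- cells, and of 0.65 and 0.867 for Lepr+ cells).

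The call depended on single libraries although its direction did not. In Lepr- cells the adjusted p was 0.0669, 0.0692, 0.0533 and 0.0574 without MPP replicate 1, 2, 3 or 5 and 0.0621 without HSC replicate 4. In Lepr+ cells it was 0.0594 and 0.0564 without HSC replicate 2 or 4, 0.0653 without MPP replicate 2, 0.0901 without the 3 libraries least like their groups and 0.107 with only the 2 compared groups in the fit. Leaving out a whole replicate number ended the call for numbers 1, 2, 3 and 5 in Lepr- cells (adjusted p of 0.0824, 0.193, 0.0963 and 0.127) and for 2, 3 and 5 in Lepr+ cells (0.279, 0.092 and 0.181).

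The promoters of 3 pro-survival genes are printed because Bcl2l1 passed between HSC and MPP and Mcl1 did not, and because Bcl2 ran against Bcl2l1 among libraries of a group. Each line gives the 250 bases before the transcription start in RefSeq on GRCm38.p6, 5′ to 3′ on the gene's strand, in lower case, with capitals for matches to the GC box GGGCGG (bound by SP1), the ETS word CCGGAAG, the GATA words AGATAA or AGATAG or TGATAA or TGATAG, the STAT word TTCNNNGAA, the box CCAAT and the TATA box with the letters TATAAA, on either strand.
Bcl2l1, chr2:152831729-152831978, minus strand, the most upstream of 3 starts: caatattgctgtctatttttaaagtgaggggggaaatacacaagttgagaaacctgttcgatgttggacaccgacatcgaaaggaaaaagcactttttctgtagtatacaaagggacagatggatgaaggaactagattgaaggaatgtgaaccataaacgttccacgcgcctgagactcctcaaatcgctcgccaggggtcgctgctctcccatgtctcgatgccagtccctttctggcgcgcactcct
Bcl2, chr1:106714291-106714540, minus strand: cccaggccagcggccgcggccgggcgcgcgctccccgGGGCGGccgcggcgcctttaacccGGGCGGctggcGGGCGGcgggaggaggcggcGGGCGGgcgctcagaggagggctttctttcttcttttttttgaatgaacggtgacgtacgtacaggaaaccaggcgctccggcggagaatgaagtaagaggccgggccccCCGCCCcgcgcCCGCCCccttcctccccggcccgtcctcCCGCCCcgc
Mcl1, chr3:95658471-95658720, plus strand: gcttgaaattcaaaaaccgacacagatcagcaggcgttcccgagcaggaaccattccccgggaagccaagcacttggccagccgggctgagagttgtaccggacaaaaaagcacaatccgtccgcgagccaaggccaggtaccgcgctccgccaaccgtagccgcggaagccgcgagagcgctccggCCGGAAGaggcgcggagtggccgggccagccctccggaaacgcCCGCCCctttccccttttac
The Bcl2l1 window held none of these words, 47.6% G and C and 12 CpG. The Bcl2 window held 7 GC boxes, 74.8% G and C and 36 CpG. The Mcl1 window held 1 ETS word, which starts 63 bases upstream, and 1 GC box, with 64.4% G and C and 26 CpG. Of 32,851 windows of the same length, 32.7% held a GC box, 6.91% the ETS word, 26.5% a GATA word, 7.02% the STAT word, 33.8% a CCAAT box and 12.4% a TATA box, and the median window had 52.4% G and C and 6 CpG. Promoters were read for 9 of the 10 members, over 14 start sites, and a match in these letters is not a measured binding site. The third and most downstream of the Bcl2l1 starts had 1 GATA word, AGATAA, 41 bases upstream, and 0 CpG, and the second had no match.

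Bcl2 (ENSMUSG00000057329, chr1:106538178-106714274, minus strand) was highest in Lepr- HSC. In Lepr- cells it was at 138, 100.1, 150.0, 63.5 and 95.01 CPM in HSC replicates 1 to 5 against 55.3, 77.0, 64.0, 32.4 and 48.0 CPM in MPP replicates 1 to 5. HSC were higher in 5 of 5 pairs, as for 12.8% of all genes, but HSC replicate 4 lay among the MPP values. The log2 difference was 0.98 ± 0.32 and did not pass (edgeR adjusted p = 0.132). With the replicate number as a block it was 0.97 and passed (edgeR adjusted p = 0.00622), so that 2 of 10 members passed there, against 7.5% of all genes. It also passed with DESeq2 (adjusted p = 0.0499, where 5.11% of all genes passed) and, in a fit chosen after seeing the data, with the number of genes detected at equal depth as a covariate (1.08, edgeR adjusted p = 0.00215, where 5.45% passed), but not with limma voom (adjusted p = 0.079, where 3.96% passed). The June libraries gave 1.18 and the July libraries 0.55.

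In Lepr+ cells Bcl2 was at 90.3, 53.7, 101, 46.7 and 52.9 CPM in HSC replicates 1 to 5 against 53.3, 82.3, 62.6, 24.8 and 63.2 CPM in MPP replicates 1 to 5. These ranges overlapped widely, and HSC were higher in 3 of 5 pairs. The log2 difference was 0.27 ± 0.31 (edgeR adjusted p = 0.991), and it was 0.46 in the June and -0.10 in the July libraries. An antisense gene, D630008O14Rik, covers 6.09% of the exon bases of Bcl2, and without strand information its reads cannot be separated there.

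Mcl1 (ENSMUSG00000038612, chr3:95658788-95663176, plus strand), a short-lived protein that stem cells need, had the highest CPM of the 10 in every group mean. It was at 153, 251, 172, 174 and 181 CPM in Lepr- HSC replicates 1 to 5 and at 196, 185, 204, 246 and 212 CPM in Lepr- MPP replicates 1 to 5. The groups overlapped, and the log2 difference of HSC from MPP was -0.16 ± 0.25 with an interval from -0.68 to 0.35 (edgeR adjusted p = 0.902). In Lepr+ HSC replicates 1 to 5 it was at 70.1, 229, 167, 217 and 217 CPM, and in Lepr+ MPP replicates 1 to 5 at 168, 167, 190.4, 263 and 144 CPM. Lepr+ HSC replicate 1 was the lowest of the 20 libraries and Lepr+ MPP replicate 4 the highest, and the Lepr+ groups overlapped.

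Bcl2l2 (ENSMUSG00000089682, chr14:54883377-54888234, plus strand), which encodes BCL-W, was low throughout, between 0 and 8.75 CPM with a median of 2.94 CPM over the 20 libraries. Lepr- HSC replicate 1 and Lepr+ HSC replicate 1 stood out at 8.75 and 8.59 CPM, and Lepr- MPP replicate 4 had 0 counts. Group means were 3.78 ± 3.17, 2.78 ± 3.32, 2.53 ± 1.63 and 3.47 ± 1.71 CPM in Lepr- then Lepr+ HSC, then in Lepr- then Lepr+ MPP (SD, n = 5), and the groups overlapped. A neighbouring coding model, Gm20521, shares 13.3% of its exon bases.

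**Figure D1:**
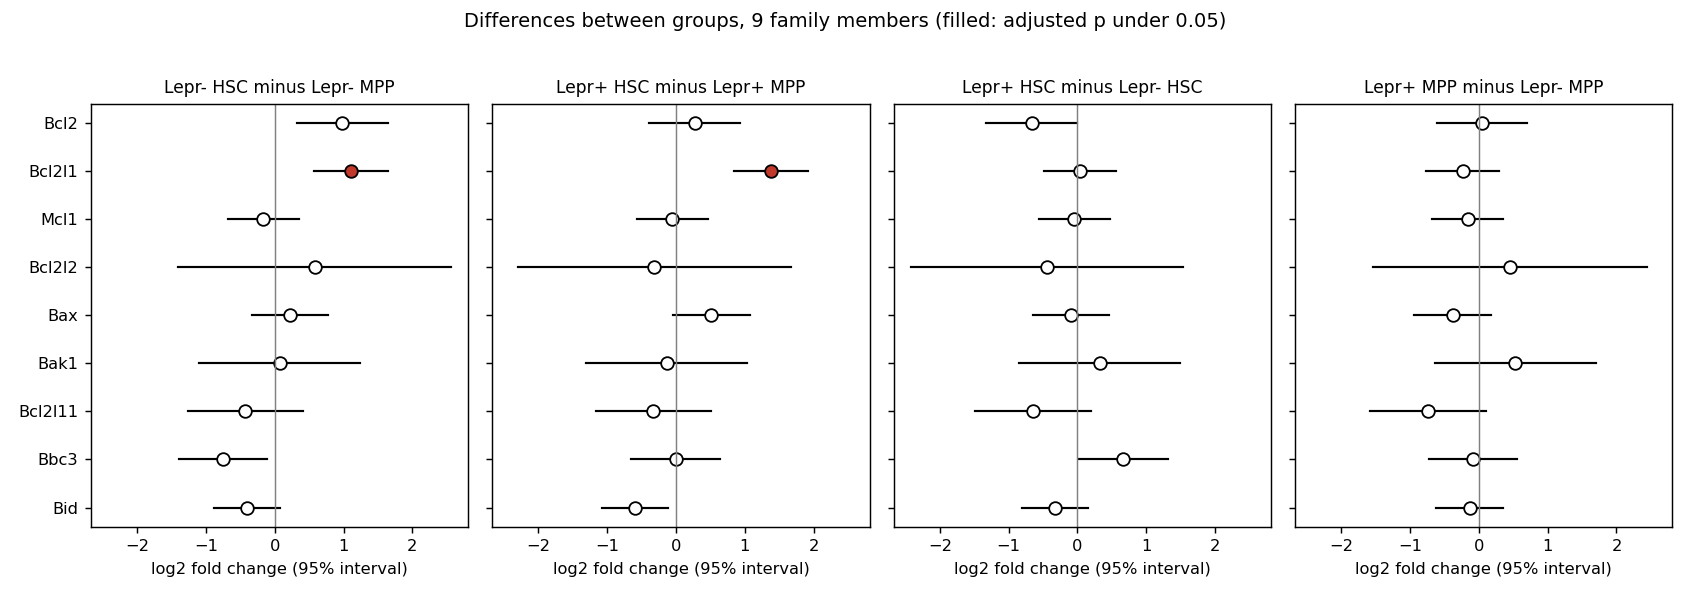
Log2 fold change (horizontal axis) of 9 members in the 4 comparisons of groups, with 95% intervals as lines and filled points for an edgeR adjusted p under 0.05. Pmaip1 is left out because its intervals are several log2 units wide. The 2 filled points are Bcl2l1 at 1.11 and 1.38 in the comparisons of HSC with MPP, and no point is filled in the comparisons of Lepr+ with Lepr- cells.

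Of the pore-forming members, Bax was read at moderate and Bak1 at low level, and neither passed a test. Bax (ENSMUSG00000003873, chr7:45461697-45466898, minus strand), which in healthy cells waits in the cytosol, was at 36.3, 38.3, 36.7, 53.5 and 47.0 CPM in Lepr- HSC replicates 1 to 5 and at 31.1, 23.1, 27.96, 65.2 and 33.8 CPM in Lepr- MPP replicates 1 to 5. HSC were higher in 4 of 5 pairs, the exception being replicate 4, and the log2 difference was 0.22 ± 0.27 (edgeR adjusted p = 0.864). In Lepr+ cells it was at 33.9, 38.2, 29.3, 43.0 and 54.0 CPM in HSC replicates 1 to 5 and at 25.9, 23.2, 23.9, 39.3 and 26.9 CPM in MPP replicates 1 to 5. HSC were higher in 5 of 5 pairs, as for 5.8% of all genes, but MPP replicate 4 lay inside the HSC range, and the log2 difference of 0.51 ± 0.27 did not pass (edgeR adjusted p = 0.717).

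Bak1 (ENSMUSG00000057789, chr17:27019810-27029009, minus strand), which sits on the mitochondrial membrane, ran from 0.767 to 4.39 CPM over the 20 libraries. Its group means were 2.05 ± 0.545, 2.56 ± 0.926, 1.95 ± 0.681 and 2.83 ± 1.44 CPM in Lepr- then Lepr+ HSC, then in Lepr- then Lepr+ MPP (SD, n = 5), and every pair of groups overlapped. Ggnbp1 models on the other strand share 18.2% and 7.35% of its exon bases, and Gm45808 shares 12.2% of those of Bax.

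Among the BH3-only genes, the amplifier Bid was by far the most read, and none of the 4 passed a test. Bid (ENSMUSG00000004446, chr6:120891930-120916853, minus strand), which caspase-8 cuts into its active form, was at 83.5, 52.3, 98.2, 45.1 and 61.8 CPM in Lepr- HSC replicates 1 to 5 and at 95.8, 109.6, 96.4, 82.6 and 65.8 CPM in Lepr- MPP replicates 1 to 5. HSC lay below MPP in 4 of 5 pairs, replicate 3 being the exception, and the groups overlapped (log2 difference -0.40 ± 0.23, edgeR adjusted p = 0.544). In Lepr+ cells it was at 58.8, 50.9, 61.4, 61.0 and 39.1 CPM in HSC replicates 1 to 5 and at 88.0, 87.6, 91.1, 48.8 and 94.3 CPM in MPP replicates 1 to 5. Only MPP replicate 4 came down into the HSC range, and the log2 difference was -0.60 ± 0.23 (unadjusted p = 0.0181, edgeR adjusted p = 0.428). Bcl2l13 on the other strand shares 17.7% of the exon bases of Bid.

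Bbc3 (ENSMUSG00000002083, chr7:16308393-16318205, plus strand), the PUMA gene, was lowest in Lepr- HSC. It was at 6.04, 14.3, 8.51, 12.9 and 8.57 CPM in Lepr- HSC replicates 1 to 5 against 13.2, 16.6, 16.3, 23.6 and 15.2 CPM in Lepr- MPP replicates 1 to 5. HSC were lower in 5 of 5 pairs, as for 11.2% of all genes, with Lepr- HSC replicate 2 reaching into the MPP range, and the log2 difference of -0.75 ± 0.31 did not pass (edgeR adjusted p = 0.288). Lepr+ HSC and Lepr+ MPP had means of 16.0 ± 4.76 and 16.0 ± 2.89 CPM (SD, n = 5).

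Bcl2l11 (ENSMUSG00000027381, chr2:128126038-128162547, plus strand), the BIM gene, was at 11.4, 29.4, 11.3, 17.8 and 24.1 CPM in Lepr- HSC replicates 1 to 5 and at 18.8, 22.03, 22.02, 27.5 and 35.9 CPM in Lepr- MPP replicates 1 to 5. HSC were lower in 4 of 5 pairs and the groups overlapped (log2 difference -0.43 ± 0.40, edgeR adjusted p = 0.802). In Lepr+ cells it was at 10.1, 4.21, 17.0, 6.45 and 22.4 CPM in HSC replicates 1 to 5 and at 18.9, 10.1, 17.7, 13.8 and 15.1 CPM in MPP replicates 1 to 5. Lepr+ HSC had values on both sides of all 5 MPP libraries (log2 difference -0.33 ± 0.40, edgeR adjusted p = 0.994). Pmaip1, the NOXA gene, had counts in 9 of 20 libraries and never more than 31, with its highest levels in Lepr+ MPP replicate 5 at 3.49 CPM and Lepr+ HSC replicate 1 at 1.23 CPM. A library with 0 counts still allows 3 counts, while other libraries of the same group held up to 31. No comparison of Pmaip1 passed, and its intervals were wide, from -3.38 to 4.17 on the log2 scale between Lepr+ and Lepr- HSC. A large group difference can therefore be neither shown nor excluded for it.

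Per kilobase of annotated exon, which allows genes to be compared, Mcl1 came first in all 4 groups, at 54.5 ± 10.95, 52.7 ± 19.3, 61.0 ± 6.81 and 54.6 ± 13.4 CPM per kb in Lepr- then Lepr+ HSC, then in Lepr- then Lepr+ MPP (SD, n = 5). In Lepr- HSC it was followed by Bcl2l1 (29.6 ± 6.00), Bax (26.9 ± 4.81), Bid (19.2 ± 6.24) and Bcl2 (11.9 ± 3.80 CPM per kb). Of these, Bcl2l1 and Bax differed by less than their SD. In Lepr- MPP the order after Mcl1 was Bid (25.4 ± 4.67), Bax (22.99 ± 10.6), Bcl2l1 (13.8 ± 4.85), Bbc3 (7.98 ± 1.85) and Bcl2 (6.04 ± 1.83 CPM per kb), where Bid and Bax, Bax and Bcl2l1, and Bbc3 and Bcl2 differed by less than the larger SD or by about as much. Lepr+ HSC kept the order of Lepr- HSC, with Bcl2 and Bbc3 nearly level at 7.53 ± 2.72 and 7.51 ± 2.24 CPM per kb, and Lepr+ MPP kept that of Lepr- MPP. Bcl2l11, Bak1, Bcl2l2 and Pmaip1 closed the order everywhere. The order depends on the length used: by the median length of a gene's transcripts, Bid came first in Lepr- HSC and in both MPP groups and Bcl2l1 in Lepr+ HSC, with Mcl1 below it.

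Read as shares of the summed pro-survival level per kb, Bcl2l1 made up 30.6 ± 5.59% in Lepr- HSC and 33.3 ± 5.77% in Lepr+ HSC, against 16.6 ± 3.62% in Lepr- MPP and 16.0 ± 1.099% in Lepr+ MPP (SD, n = 5). The share was 26.7, 26.8, 26.8, 38.9 and 34.01% in Lepr- HSC replicates 1 to 5 and 12.8, 14.8, 16.4, 22.5 and 16.3% in Lepr- MPP replicates 1 to 5. It was 37.7, 32.8, 23.5, 36.8 and 35.7% in Lepr+ HSC replicates 1 to 5 and 16.8, 14.4, 16.8, 15.3 and 16.7% in Lepr+ MPP replicates 1 to 5. HSC lay above MPP in every library, which follows in part from the Bcl2l1 difference already tested. Mcl1 took the larger part of the rest, with 55.8 ± 4.33% (Lepr-) and 56.0 ± 9.32% (Lepr+) in HSC against 75.02 ± 2.17% (Lepr-) and 73.8 ± 4.52% (Lepr+) in MPP. The 4 BH3-only genes together summed to 26.4 ± 4.58 (Lepr-) and 24.4 ± 2.52 CPM per kb (Lepr+) in HSC, and to 36.6 ± 4.23 (Lepr-) and 32.8 ± 5.86 CPM per kb (Lepr+) in MPP.

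**Figure D2:**
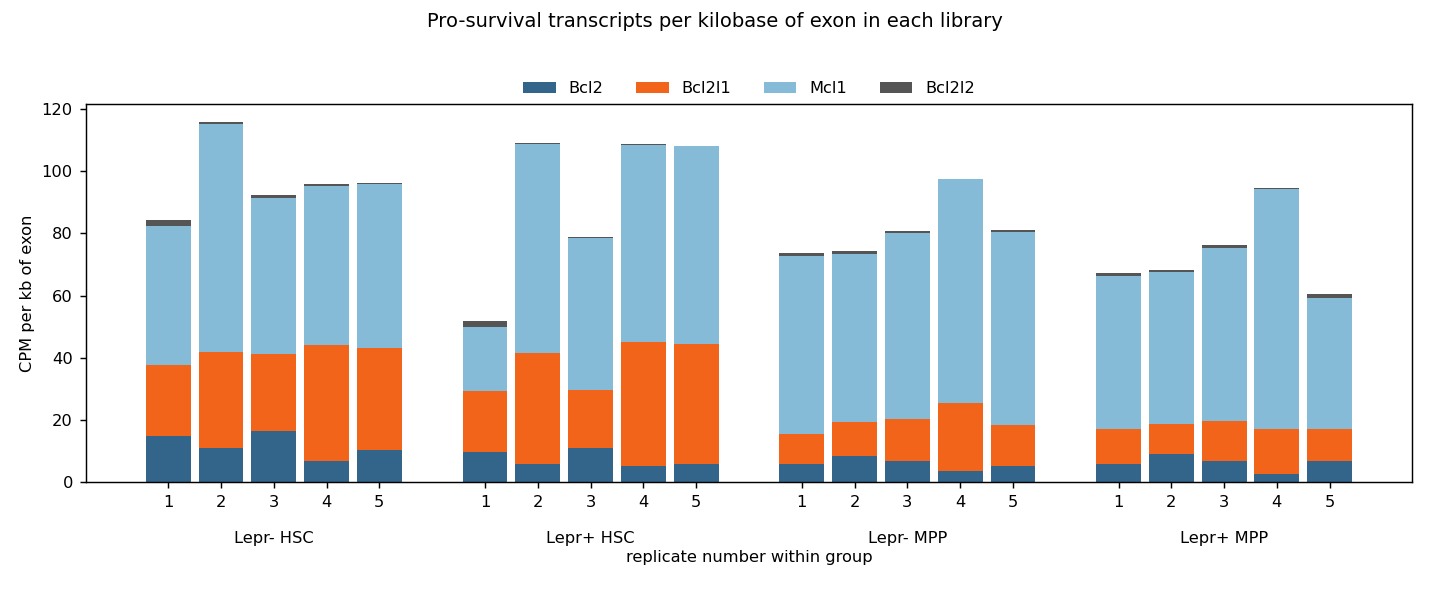
Stacked bars, starting at 0, of the level of Bcl2, Bcl2l1, Mcl1 and Bcl2l2 in CPM per kilobase of exon (vertical axis) in each of the 20 libraries (horizontal axis, replicates 1 to 5 in each group). The Bcl2l1 segment is a larger part of the bar in the HSC libraries (23.5 to 38.9%) than in the MPP libraries (12.8 to 22.5%), and Bcl2l2 is barely visible.

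No member passed a test between cells with and without surface Lepr. Between Lepr+ and Lepr- HSC, 0 of 10 members passed with edgeR, DESeq2 or limma voom, where these tools called 0.103%, 1.1% and 0.109% of all genes. There 2 members, Bcl2 and Bbc3, had an unadjusted p under 0.05 in edgeR, against 1,149 of 16,509 genes. Between Lepr+ and Lepr- MPP 0 of 10 passed with any of these tools, where they called 0.2%, 1.29% and 0.357% of all genes. None of the 10 had an unadjusted p under 0.05 in edgeR there, against 728 of 16,509 genes. Every member's 5 Lepr+ libraries overlapped its 5 Lepr- libraries, while 1.62% of all genes in HSC and 1.64% in MPP showed no overlap.

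Bcl2 and Bbc3 were the members with all 5 pairs of HSC libraries on 1 side. Set against its Lepr- values above, Bcl2 was lower in Lepr+ HSC in 5 of 5 pairs, as for 8.8% of all genes, with means of 69.0 ± 24.9 against 109 ± 34.8 CPM (SD, n = 5). The log2 difference was -0.66 ± 0.32, with an interval from -1.32 to -0.0036 (unadjusted p = 0.0489, edgeR adjusted p = 0.711). Bbc3 was higher in 5 of 5 pairs, as for 6.83% of all genes, at 9.02, 17.6, 13.7, 21.5 and 18.0 CPM in Lepr+ HSC replicates 1 to 5. Its log2 difference was 0.66 ± 0.31 with an interval from 0.02 to 1.31 (unadjusted p = 0.044, edgeR adjusted p = 0.684). Neither difference passed the threshold over all genes, and with the replicate block the adjusted p was 0.167 for Bcl2 and 0.286 for Bbc3.

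For the other large members the intervals bound what a Lepr difference could be. Bcl2l1 differed between Lepr+ and Lepr- HSC by 0.039 ± 0.25 on the log2 scale, from 0.713 to 1.48 times the Lepr- level, and Mcl1 by -0.048 ± 0.25, from 0.677 to 1.38 times. In MPP the differences were -0.23 ± 0.25 for Bcl2l1 (0.59 to 1.23 times) and -0.16 ± 0.25 for Mcl1 (0.626 to 1.28 times). The signs of the 2 HSC values were not stable, since Bcl2l1 was below 0 with limma voom and in the June libraries, and Mcl1 was above 0 in the July libraries. The log2 difference of Bcl2l11 between Lepr+ and Lepr- cells was -0.65 ± 0.40 in HSC and -0.74 ± 0.40 in MPP, without passing (edgeR adjusted p of 0.924 and 1), and the HSC value was 0.080 in the June and -2.11 in the July libraries. Bid in HSC (-0.33 ± 0.23) and Bax in MPP (-0.38 ± 0.27) did not pass either (edgeR adjusted p of 0.969 and 1), and Bid changed sign to 0.24 in the July libraries.

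The Lepr difference was also compared between the cell types with an interaction term. No member passed, and edgeR and limma voom called 0.0% of all genes, with 529 of 16,509 at an unadjusted p under 0.05 in edgeR, while DESeq2 called 0.115% and no member. The largest of the well-read members were Bbc3 at 0.75 ± 0.43 and Bcl2 at -0.71 ± 0.45 (HSC minus MPP, log2), and Bcl2l1 was at 0.27 ± 0.36, so its difference between HSC and MPP was not shown to depend on Lepr. For this term 0 of the 10 had an unadjusted p under 0.05 in edgeR with group alone. With the replicate block 1 had, against 830 of 16,509 genes, and with genes detected as a covariate 1 had, against 1,075.

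Within groups several members followed, in 1 direction or the other, the number of genes a library showed at equal depth. Each library's deviation from its group mean was taken over the 20 libraries, on the log2 scale. Bcl2 correlated with genes detected at r = 0.84, Bcl2l2 at 0.79, Bid at 0.73 and Pmaip1, on few counts, at 0.59. Bcl2l1 went the other way at r = -0.85, as did Bax at -0.78, Mcl1 at -0.71 and Bbc3 at -0.71, while Bak1 (0.13) and Bcl2l11 (-0.13) showed little of it. Bcl2 and Bcl2l1 thus ran against each other within groups (r = -0.82). These correlations describe 20 libraries that share groups, depth and normalisation, and 20.8% of all 16,509 genes had a size of at least 0.75 with genes detected. Of the members, Bcl2, Bcl2l1, Bcl2l2 and Bax reached that size.

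The ranges of genes detected nearly coincided between groups, but the medians of both HSC groups lay below those of both MPP groups, with no test made. The range was 15,649.1 to 20,789.6 with a median of 16,460.8 in Lepr- HSC, and 15,423.4 to 20,430.0 with a median of 15,953.1 in Lepr+ HSC. In Lepr- MPP it was 15,048.5 to 20,019.4 with a median of 18,570.8, and in Lepr+ MPP 14,761.5 to 20,168.4 with a median of 18,899.0. With genes detected as a covariate, chosen after seeing the data, the Bcl2l1 difference between HSC and MPP was 1.05 in Lepr- cells and 1.12 in Lepr+ cells (edgeR adjusted p of 2.1e-04 and 8.14e-04, where 5.45% and 0.933% of all genes passed). With group alone it was 1.11 and 1.38. The Bcl2 difference was 1.08 and 0.50 in the fit with the covariate.

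**Figure D3:**
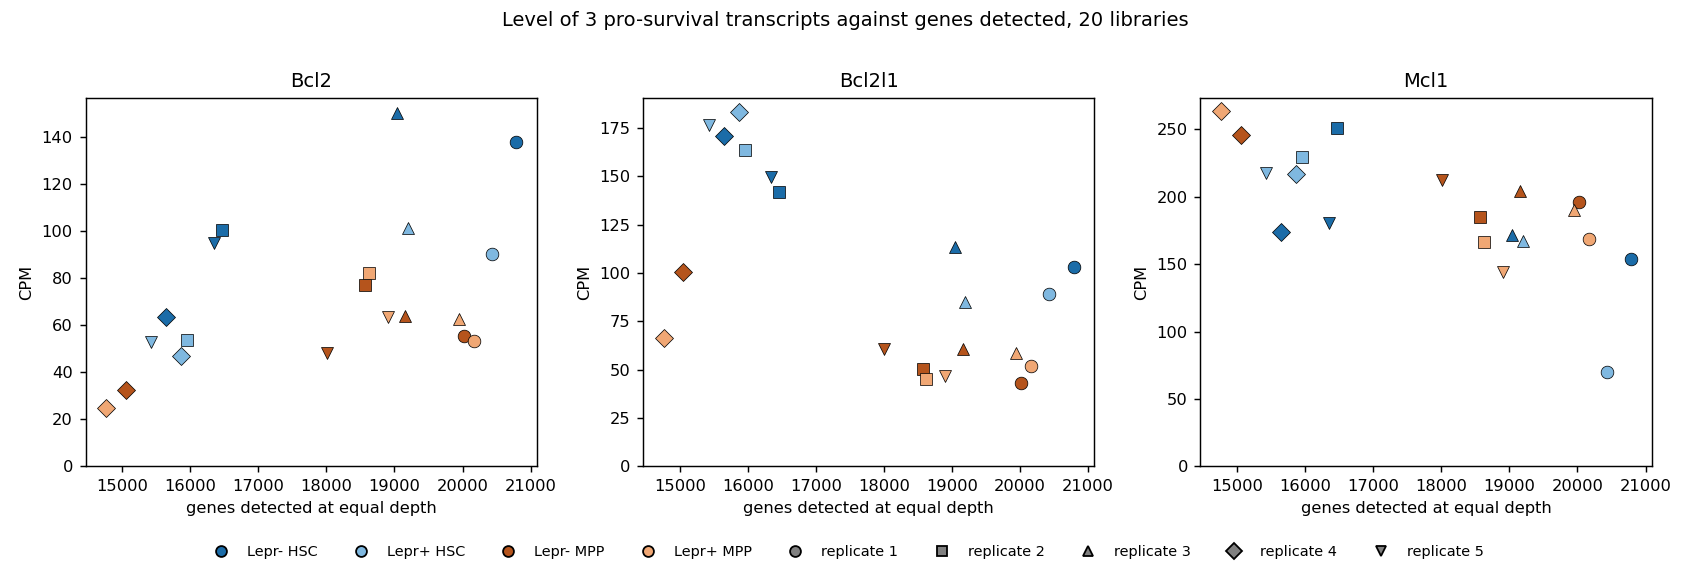
Level of Bcl2, Bcl2l1 and Mcl1 in CPM (vertical axes from 0) against the number of genes detected at equal depth (horizontal axis) in the 20 libraries, coloured by group and with 1 symbol for each replicate number. Bcl2 is high where many genes were detected and Bcl2l1 where few were, and at like numbers of genes the HSC libraries lie above the MPP libraries for Bcl2l1.

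The members sit in a wider pathway, for which 66 further genes were read in 7 lists and 62 were tested. None passed between Lepr+ and Lepr- cells in either cell type, where 0.103% of all genes passed in HSC and 0.2% in MPP. Between Lepr- HSC and Lepr- MPP 4 passed (2 higher and 2 lower), where 2.73% of all genes passed (1.22% as higher). Between Lepr+ HSC and Lepr+ MPP 1 passed, where 0.466% of all genes passed. The median log2 difference of the 62 genes was -0.07 and -0.08 in these last 2 comparisons, against 0.01 and -0.02 for all genes.

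The gene that passed at both Lepr states was Birc5, which encodes survivin, an inhibitor of apoptosis protein that also serves chromosome segregation in dividing cells. It was at 152, 141, 141, 177 and 178 CPM in Lepr- HSC replicates 1 to 5 and at 39.1, 32.7, 35.8, 80.2 and 48.7 CPM in Lepr- MPP replicates 1 to 5, with no overlap. Its log2 difference was 1.74 ± 0.24 (edgeR adjusted p = 2.7e-04), and in Lepr+ cells 1.58 ± 0.24 (edgeR adjusted p = 0.00496). The other 6 genes of that list did not pass: Xiap, Birc2, Birc3, Birc6, Diablo and Htra2.

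Of the 10 upstream regulators, 2 passed between Lepr- HSC and Lepr- MPP, where 2.73% of all genes passed. E2f1, a cell cycle factor that can induce BH3-only genes, was higher in HSC at 104 ± 23.9 against 49.4 ± 14.1 CPM (log2 difference 1.07 ± 0.27, edgeR adjusted p = 0.0332). Pim1, a survival kinase downstream of STAT5, was lower at 20.1 ± 6.06 against 45.5 ± 11.4 CPM (-1.18 ± 0.29, edgeR adjusted p = 0.0324). Foxo3, which drives Bcl2l11 and Bbc3 when growth factor signals fall, was at 36.4 against 64.3 CPM and did not pass (-0.82 ± 0.28, edgeR adjusted p = 0.152). With the replicate block, which called 7.5% of all genes here, 1 of the 10 was higher and 4 were lower, Stat3, Stat5b and Myc joining Pim1.

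Of the 12 p53 pathway genes, Trp53inp1, a p53 target, was lower in Lepr- HSC than in Lepr- MPP at 16.7 ± 6.34 against 46.1 ± 10.05 CPM (-1.46 ± 0.32, edgeR adjusted p = 0.0114), and the other 11 did not pass. Among the 8 apoptosome and caspase genes, Cycs, which encodes cytochrome c, was at 139 ± 38.8 against 77.2 ± 20.3 CPM without passing (0.85 ± 0.26, edgeR adjusted p = 0.0916). It passed with the replicate block (edgeR adjusted p = 2.4e-04), as it did between Lepr+ and Lepr- HSC, where it was lower in Lepr+ cells (-0.59 with the block, edgeR adjusted p = 0.0207, against 0.615 without it). The block called 7.5% of all genes in the first of these comparisons and 169 of 16,509 in the second. No gene passed among 8 death receptor genes, 7 genes of MCL1 turnover and mitochondrial channels, or the 11 of 15 other BCL2 relatives that were tested, of which Bad had the smallest p (0.47 ± 0.23, edgeR adjusted p = 0.436). With the replicate block 3 more genes passed between Lepr- HSC and Lepr- MPP: Casp6, an executioner caspase (-0.57, edgeR adjusted p = 0.0498), Tnfrsf1a, a death receptor (-0.53, edgeR adjusted p = 0.0158), and Vdac3, an outer membrane channel (0.52, edgeR adjusted p = 0.0121). Between Lepr+ HSC and Lepr+ MPP the block, which called 293 of 16,509 genes there, added Vdac3 (0.55, edgeR adjusted p = 0.023) and Cycs (0.48, edgeR adjusted p = 0.0407).

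Markers of other states moved with the difference between HSC and MPP, and their part in the Bcl2l1 difference was not tested. With group alone 2.73% of all genes passed between Lepr- HSC and Lepr- MPP and 0.466% between Lepr+ HSC and Lepr+ MPP. The replicate block called 7.5% and 293 of 16,509 in these comparisons. Of 10 megakaryocyte markers 9 were tested, and 6 were higher in Lepr- HSC than in Lepr- MPP and 3 in Lepr+ HSC than in Lepr+ MPP (7 and 7 with the replicate block, 8 and 4 of 10 tested without the 3 libraries least like their groups). All 10 had counts in every group except Gp1bb, at 0 in Lepr+ MPP. Their summed level ran from 2807 to 5908 CPM in Lepr- HSC, 1490.5 to 3072 in Lepr+ HSC, 614 to 1024 in Lepr- MPP and 638 to 1205 in Lepr+ MPP, with little overlap between Lepr- and Lepr+ HSC, where 3 of the markers were lower in Lepr+ cells with the block and 0 without it. Of 12 genes of dividing cells 7 were higher in Lepr- HSC and 4 in Lepr+ HSC than in the matching MPP (8 and 7 with the block, 7 and 2 without the 3 libraries), with summed levels of 2507 to 4151, 1670.0 to 2978, 1456 to 1823 and 959.9 to 1538 CPM in the same order of groups. Without replicate number 2 the calls of dividing-cell genes fell to 2 in Lepr- and 1 in Lepr+ cells, and without number 3 to 2 and 0. The megakaryocyte calls were 5 in Lepr- and 1 in Lepr+ cells in each of these fits. In all, these fits called 156 and 152 genes in Lepr- cells and 6 and 9 in Lepr+ cells. Of 8 genes of the sorted stem and progenitor cells, 1 was higher and 4 were lower in Lepr- HSC than in Lepr- MPP (1 and 5 with the block), and 0 were higher and 2 lower in Lepr+ HSC than in Lepr+ MPP (1 and 3 with the block). The 4 lower were Cd34 (-2.58 on the log2 scale) and Flt3 (-4.57), which mark progenitors as they leave the stem cell state, Hlf (-1.42), a stem cell transcription factor, and Ly6a (-1.27), which encodes the sort antigen Sca-1. In Lepr+ cells the 2 lower were Cd34 (-1.99) and Flt3 (-3.95). Without replicate number 2 or 3, 3 of the 8 were lower in Lepr- cells and 1 in Lepr+ cells. The summed level of the 8 was 791 to 1290.4 CPM in Lepr- HSC and 1400.4 to 1922 CPM in Lepr+ HSC, against 2801 to 3738 CPM in Lepr- MPP and 2272 to 3418 CPM in Lepr+ MPP. The erythroid factor Gata1 was higher in Lepr+ HSC than in Lepr+ MPP (3.25 on the log2 scale), and 1 of 11 tested erythroid markers passed there and none in Lepr- cells. In that Lepr+ comparison the median log2 difference was -2.98 for 12 stromal, -2.92 for 8 endothelial and -2.44 for 6 tested B and plasma cell markers. None of these passed, and with the block 1 stromal marker was lower in HSC. The part of these cells in the Bcl2l1 difference between Lepr+ HSC and Lepr+ MPP was not tested either.

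Markers of other cell types also moved with Lepr. Between Lepr+ and Lepr- MPP, where 0.2% of all genes passed, 6 of 12 stromal and 4 of 8 endothelial markers were higher. These counts were 3 and 2 with the replicate block, and 0 and 0 when those 3 libraries, replicate number 2 or replicate number 3 were left out, where edgeR called 0 genes in all. Summed stromal levels were 152 to 3308 CPM in Lepr+ MPP against 46.0 to 75.4 CPM in Lepr- MPP, where Adipoq, Pdgfra and Lum had no count. Endothelial levels were 91.2 to 607 against 24.9 to 56.1 CPM. In HSC no stromal or endothelial marker passed, although with the replicate block the endothelial gene Aplnr was higher in Lepr+ cells (5.89 on the log2 scale, edgeR adjusted p = 0.0481), at a mean of 1.43 against 0.0283 CPM. The stromal list summed to 39.1 to 193 CPM in Lepr+ against 16.2 to 216 CPM in Lepr- libraries. Endothelial levels in HSC were 67.2 to 133 (Lepr+) against 35.04 to 70.04 CPM (Lepr-). The block called 169 of 16,509 genes between Lepr+ and Lepr- HSC and 17 between Lepr+ and Lepr- MPP. Of the B and plasma cell list 6 of 10 were tested and none passed, but with the block Igkc, an antibody light chain, was higher in Lepr+ cells of both types (8.77 in HSC and 10.48 in MPP on the log2 scale, edgeR adjusted p of 0.0498 and 0.036). That list summed to 83.2 to 4478 CPM in Lepr+ MPP against 112 to 279 CPM in Lepr- MPP, and to 51.1 to 644 against 43.5 to 109.8 CPM in Lepr+ and Lepr- HSC, with Pax5 at 0 in both MPP groups. Of 11 erythroid markers tested 1, Gata1, was lower in Lepr+ than in Lepr- MPP (-3.14), which it was not with the block (edgeR adjusted p = 0.0612), and the list summed to 32.98 to 247 against 179 to 1012 CPM in MPP and to 79.96 to 267 against 295 to 1220.5 CPM in HSC. Among the 8 stem and progenitor genes Procr (1.68) and Hlf (1.08) were higher in Lepr+ than in Lepr- HSC, joined by Ly6a and Mecom with the block, and none passed in MPP. In HSC 2 of the 8 were higher without the 3 libraries, and 0 without replicate number 2 or 3, where edgeR called 0 genes in all. Of 8 T and NK cell markers 3 were tested and none passed in any comparison, while with the block 1 was lower in Lepr+ than in Lepr- HSC. That list summed to 51.3 to 152 against 98.9 to 231 CPM in Lepr+ and Lepr- HSC. Of 10 neutrophil and monocyte markers 8 were tested, and none passed in any comparison, with or without the block. The part of these cells and states in the Lepr comparisons of the family was not tested.

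Over the 20 libraries, the genes most like each pro-survival member were ranked by Pearson correlation of log2 CPM among 10,212 genes, as a description. Bcl2l1 was closest to Slc43a1 (r = 0.960), an amino acid transporter gene, Slc24a5 (0.934) and Tmem40 (0.933). Slc43a1 had group means of 138, 138, 79.2 and 58.5 CPM in Lepr- then Lepr+ HSC, then in Lepr- then Lepr+ MPP, close to the order of Bcl2l1 itself. Bcl2 was closest to Rad18 (0.890), a DNA repair gene, Ckap2l (0.884), a mitotic spindle gene, and Zeb2 (0.874). Mcl1 was closest to Rnf139 (0.869), Irf2bp1 (0.861) and Ccni (0.855), and Bcl2l2 to Ddx23 (0.920), Zfp809 (0.917) and Xpnpep3 (0.893). The order depended on the measure. By Spearman correlation Slc43a1 kept rank 1 for Bcl2l1, but Rad18 fell to rank 87 for Bcl2, and Irf2bp1 and Ccni to ranks 175 and 132 for Mcl1. Libraries share depth, group and number of genes detected, so these values are not measures of a link between genes.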

How the data were processed

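The labels name SMART-Seq v4 cDNA synthesis and Nextera XT libraries, which keep no strand, sequenced as read pairs. Per the submitters' processing notes the authors used FastQC 0.11.8, cutadapt 2.1, STAR 2.7.1a, HTSeq 0.11.2, DESeq2 and the build GRCm38, and the deposited values are raw counts of read pairs per gene. The HTSeq counting mode is not given in the sources used here, so counts in exons shared with a neighbour are uncertain. The 5 closing lines of each file, 21.4 to 38.7% of read pairs, name no gene and were left out.

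Identifiers were matched without version to GENCODE M21 (55,480 of 55,573). Group differences were tested with edgeR 4.0.16 (R 4.3.3) quasi-likelihood F tests, two-sided, on all 20 libraries with group as the only term (TMM factors, robust fit, genes kept by filterByExpr at 10 counts and a total of 15), with Benjamini-Hochberg adjustment across the 16,509 genes kept. All 10 members passed the filter. The biological coefficient of variation was 0.747. Intervals are 95% intervals of the fit, and p-values reflect only how far these samples of 2 pooled mice differ. Alternatives were a replicate block, DESeq2 1.42.0, limma 3.58.1 voom, RLE and upper-quartile scaling, no filter, the compared groups alone, each library or replicate number left out, libraries of 1 month alone, and genes detected as a covariate. The script was tested on simulated data. A floor of 3 counts covers counting error alone, because amplified reads carried no molecular identifiers.

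The members and lists were chosen with earlier results of these data known. All members are named, with the list genes that passed and up to 3 others of a list by smallest p, and for each pro-survival member the 3 genes most like it with a mean of at least 5 CPM. Promoters are RefSeq sequences on GRCm38.p6.

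The design text gives 2 mice for each replicate, and each number carried 1 date in all 4 groups, so the numbers were read as pairing the libraries. Deviations from group means correlated at a median of 0.264 (-0.0647 to 0.562) over 30 pairs of libraries with the same number and at -0.0858 over 120 pairs with different numbers. The median was 0.411, 0.0084, 0.364, 0.264 and 0.100 for replicate numbers 1 to 5, so the likeness was weak for numbers 2 and 5. Of the 20 libraries, 14 were closest to those of their own number.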

Additional observations from a re-analysis of the deposited data

Results flagged for a closer look

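In 8 of 40 sets of 5 libraries (10 members in 4 groups) the highest or lowest library stood farther from the rest than Dixon's 95% limit of 0.71 for the gap over the range, where chance gives about 1 in 20. Mcl1 was at 251 CPM in Lepr- HSC replicate 2, the highest of its group. Lepr- MPP replicate 4 was the highest for Bax at 65.2 CPM and the lowest for Bak1 at 0.767 CPM, the latter on 11 counts. Lepr+ MPP replicate 4 was likewise the highest for Bax at 39.3 CPM and the lowest for Bid at 48.8 CPM. Bcl2l2 stood out in Lepr+ HSC replicate 1 at 8.59 CPM. Pmaip1 stood out in Lepr+ HSC replicate 1 at 1.23 CPM and in Lepr+ MPP replicate 5 at 3.49 CPM, on 31 counts each. Both replicate 4 libraries of MPP were the ones with the fewest genes detected in their groups.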

How the results depend on the processing

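A set of 25 fold changes of members, which does not cover every member in every comparison, was read under 11 alternative settings, 272 values in all. Of these values 255 kept their direction and side of the threshold, 8 reversed, 6 fell below the threshold and 3 passed it. The 8 reversed values belong to differences near 0 or to single months. Bcl2l1 between Lepr+ and Lepr- HSC was -0.044 with limma voom, -0.051 with genes detected as covariate, -0.057 without the 3 libraries least like their groups and -0.062 in June. July libraries gave 0.11 for Mcl1 and 0.24 for Bid between Lepr+ and Lepr- HSC and -0.10 for Bcl2 between Lepr+ HSC and Lepr+ MPP, and June libraries 0.080 for Bcl2l11 between Lepr+ and Lepr- HSC. Leaving out 1 library or number moved the Bcl2l1 difference between Lepr+ and Lepr- HSC from -0.078 to 0.17 and that of Mcl1 from -0.15 to 0.16. Differences outside the 25 reversed too, so the share that kept direction does not describe all members. Between Lepr+ and Lepr- MPP, Bbc3 was at -0.081, but at 0.016 with limma voom and 0.070 in June. Bcl2 was at 0.049 there, but at -0.042 with the covariate.

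Members called numbered 2 between Lepr- HSC and Lepr- MPP with the replicate block, DESeq2 and the covariate, and 0 in June or July alone. Between Lepr+ HSC and Lepr+ MPP the number was 0 with the compared groups alone, without the 3 libraries and in either month. Leaving out libraries gave 0 to 1 in both. The replicate block changed no other call of a member.

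Genes called between Lepr+ and Lepr- HSC were 17, and 169 with the replicate block, 181 with DESeq2, 134 with the covariate, 8 without the 3 libraries, 0 with the compared groups alone or in either month, and 0 to 24 with a library left out. Between Lepr+ and Lepr- MPP they were 33, and 17, 213, 54 and 0 in the same first 4 fits, 59 with limma voom, 16 with the compared groups alone, 0 in either month, and 0 to 49. Between Lepr- HSC and Lepr- MPP they were 451, and 1238, 844, 899 and 768, 81 in June, 0 in July, and 152 to 556. Between Lepr+ HSC and Lepr+ MPP they were 77, and 293, 343 and 154 in the first 3 fits, 126 with limma voom, 4 with the compared groups alone, 0 in either month, and 6 to 97. The interaction called 0, and 19 with DESeq2 and 1 with the covariate. The cause of these shifts was not tested, except that single months and compared groups hold fewer libraries. Low counts limit Bak1, Bcl2l2 and Pmaip1.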
